A study of Homo sapiens with 6 samples.

Results

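The genes described here are 10 components and readouts of transforming growth factor beta (TGF-beta) signalling. They are the ligands TGFB1 and TGFB2, the receptors TGFBR1 and TGFBR2, the signal transducers SMAD2, SMAD3 and SMAD4, the inhibitory SMAD7, the SMAD corepressor SKIL and the TGF-beta-induced matrix protein TGFBI. They were taken by gene symbol, and all 10 were present among the 11679 genes of the authors' deposited tables. RNA came from 786-O, an established line of human clear cell renal carcinoma, transfected with a non-targeting siRNA or with ALYREF siRNA5 or ALYREF siRNA8, which target an adaptor protein of messenger RNA export. Each of the 3 groups had 2 libraries of polyadenylated RNA, collected 48 h after transfection with DharmaFECT 1 from cells kept in RPMI with 10% FBS. In all groups the cells were split 24 h after transfection. The labels name no added TGF-beta and no inhibitor of it. The results hold for 1 cell line, and nothing in the labels says whether duplicates were separate cultures, so p-values measure the spread between libraries alone, and that spread may be technical.

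TGF-beta is secreted in a latent form, bound to its own propeptide and to latent TGF-beta binding proteins, and is set free by integrins, proteases and thrombospondin. Free ligand binds TGFBR2, a kinase that phosphorylates and switches on TGFBR1, and TGFBR1 phosphorylates SMAD2 and SMAD3. These join SMAD4 and act on genes in the nucleus, among them the genes of the inhibitors SMAD7 and SKIL, which close a negative feedback loop. In carcinoma cells the pathway is known for its effects on matrix, migration and mesenchymal genes.

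ALYREF stood at 5.67% of its control level with siRNA5 (95% interval 4.98 to 6.46) and at 7.83% with siRNA8 (6.98 to 8.79), computed from the authors' deposited tables. The kidney lineage factor PAX8 (mean 2354 normalized counts) and the keratin KRT8 (mean 6338) are present in the authors' deposited tables, while CA9, a marker of clear cell tumours, is not listed. Of markers of other cell types, 1 of 8 immune genes (CD68, mean 202), 0 of 4 endothelial genes and 2 of 7 fibroblast genes (COL1A1 and PDGFRB, means 48.5 and 21.2) are listed there. The tables hold 1 mean per gene over all libraries, and values per library were not analysed here. The level of each group was therefore rebuilt from that mean and both fold changes, with 2 libraries per group, and is called the implied level. Standard errors rebuilt from these levels had a median ratio of 1.01 to the deposited ones (5th to 95th percentile 1.00 to 1.02).

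Changes are given on the log2 scale relative to the non-targeting siRNA, each with its standard error (SE). A gene "rose" or "fell" where the adjusted p of the authors' DESeq2 fit was under 0.05. Both comparisons share the 2 control libraries, so their values are set side by side and agreement between them is not counted as support.

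Per kilobase of annotated exon, TGFBI was the highest of the 10 genes, at 4616 normalized counts per kb, followed by TGFB1 at 434, TGFBR2 at 390 and TGFB2 at 350. SMAD3 stood at 272 and TGFBR1 at 118 on this scale, and SMAD7, SKIL, SMAD4 and SMAD2 lay between 97.1 and 26.7. The annotated exons of SMAD2 add up to 36366 nt, which lowers its place. No spread between libraries is available for these levels, so the order of neighbours was not tested.

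**Figure D1:**
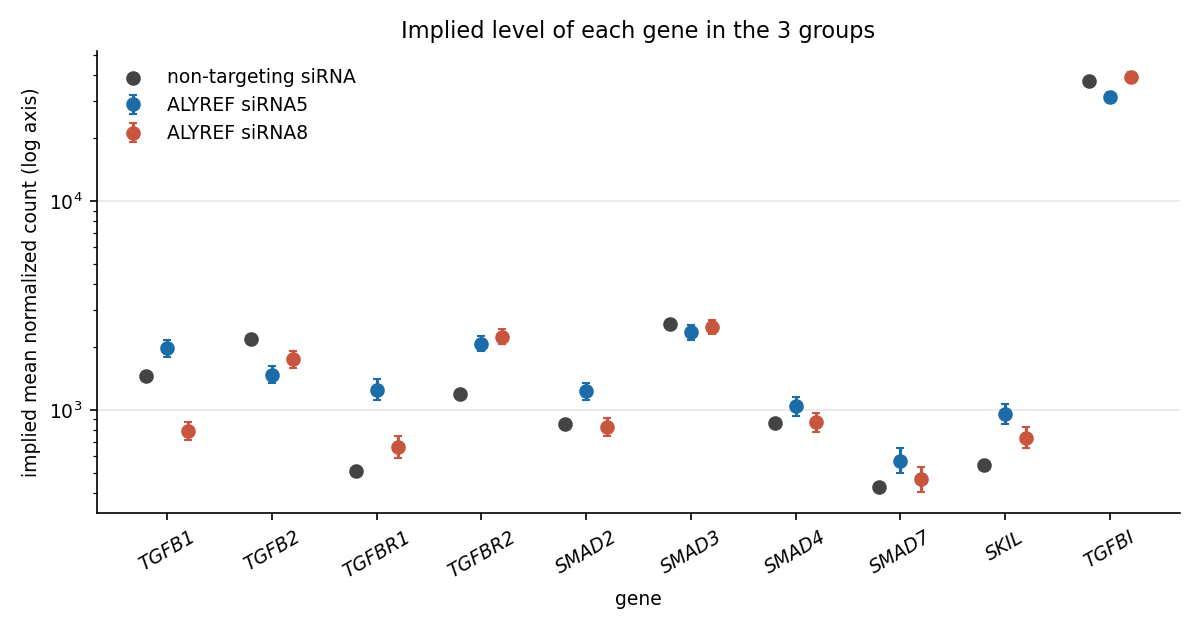
Implied mean normalized count (log axis) of the 10 genes in the control, ALYREF siRNA5 and ALYREF siRNA8 groups, 1 point per group; bars are 95% intervals of the fold change applied to the control level. TGFBR1 goes from 508 in the control to 1250 with siRNA5 and 661 with siRNA8, and TGFB1 lies above its control level of 1453 with siRNA5 and below it with siRNA8.

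With siRNA5, 7 of the 10 genes rose and 3 fell, and with siRNA8, 3 rose, 2 fell and 5 did not pass the test. The share called among all genes was 46.4% with siRNA5 (24.4% rose and 22.0% fell) and 41.5% with siRNA8 (21.0% rose and 20.5% fell). Among the 5621 genes with a mean at least as high as that of the lowest of the 10 genes, 59.0% were called with siRNA5 and 53.5% with siRNA8. The count with siRNA5 lies above both shares, and the count of 5 with siRNA8 is near them. The 10 genes were chosen with earlier results of these data known, so these counts are descriptions. The median change of the 10 genes was 0.42 with siRNA5 and 0.05 with siRNA8, beside 0.01 with each siRNA over all genes. A direct comparison of the siRNAs found 6 of the 10 genes different, 4 higher and 2 lower with siRNA5. The controls cancel in the difference itself, but their variance stays in this standard error, which is too large. Its background was 32.0% of all genes (17.2% higher and 14.8% lower with siRNA5) and 45.4% of those with a mean at least as high. With the control variance taken out, 8 of the 10 genes and 48.1% of all genes differed.

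**Figure D2:**
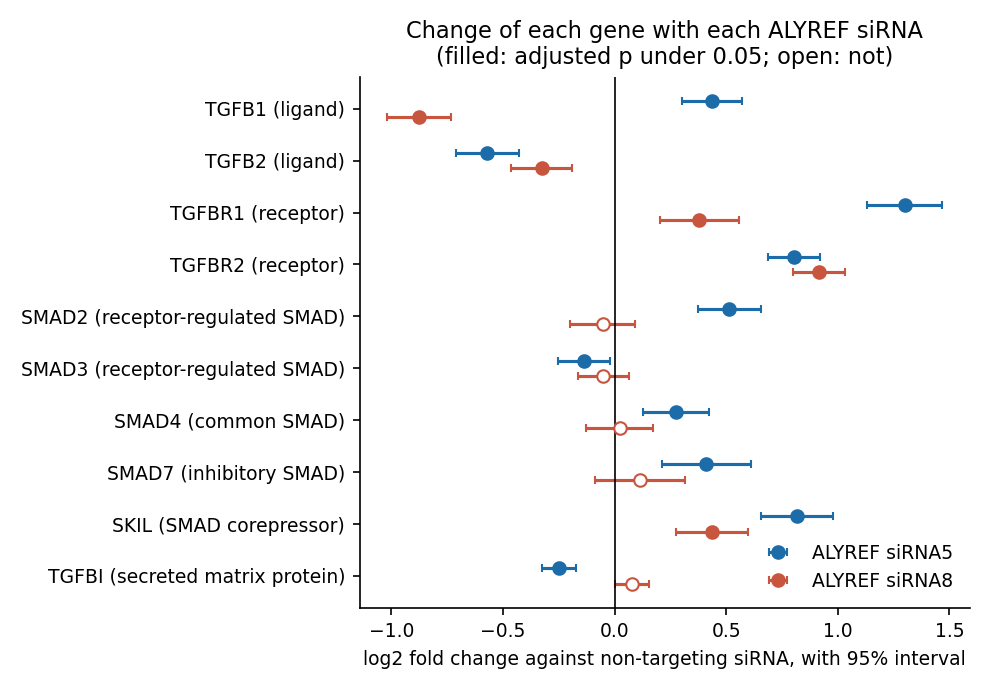
Log2 fold change against the non-targeting siRNA (x axis) for each of the 10 genes (y axis, with its role), blue for ALYREF siRNA5 and red for ALYREF siRNA8; bars are 95% intervals, filled points passed the adjusted p threshold of 0.05. TGFBR2 lies at 0.80 and 0.92, while TGFB1 lies at 0.44 with siRNA5 and at -0.87 with siRNA8.

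The ligand genes went different ways. TGFB1, the most widely expressed TGF-beta isoform, had implied levels of 1453 in the control, 1968 with siRNA5 and 793 with siRNA8, so that the control lay between the knockdowns. TGFB1 rose 1.35-fold with siRNA5 (log2 0.44, SE 0.068, adjusted p = 1.18e-09) by the authors' deposited table. With siRNA8 it was 1.83-fold lower (log2 -0.87, SE 0.073, adjusted p = 6.06e-31), again from the authors' deposited table. The siRNAs differed for TGFB1 by 1.31 (SE 0.10, adjusted p = 4.19e-37), which is 2.48-fold. A stretch of 215 nt of the TGFB1 exons, 6.64% of their length, overlaps exons of HNRNPUL1 on the other strand. The library kit keeps the strand per the labels, and the strand setting of the counting is not stated in any source at hand. HNRNPUL1, an RNA-binding protein, is listed in the authors' deposited tables with changes of -0.05 (SE 0.043) for siRNA5 and -0.07 (SE 0.043) for siRNA8. In bulk RNA, fewer cells carrying a transcript and less of it per cell cannot be told apart, here and for every gene below.

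TGFB2, the isoform that needs the co-receptor betaglycan for strong receptor binding, had implied levels of 2191 in the control, 1476 with siRNA5 and 1748 with siRNA8. The control was the highest of the 3 groups. The authors' deposited tables gave TGFB2 a fall with siRNA5 (log2 -0.57, SE 0.072, adjusted p = 2.77e-14) and with siRNA8 (log2 -0.33, SE 0.070, adjusted p = 2.12e-05). The siRNAs differed for TGFB2 by -0.24 (SE 0.10, adjusted p = 0.0471), and at a threshold of 0.01 that difference is not called. TGFB2-OT1, a transcript on the same strand, shares 1371 nt (26.6%) of the annotated TGFB2 exons, and it is not listed.

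Both receptor genes rose with each siRNA. TGFBR1, the type I receptor kinase that phosphorylates SMAD2 and SMAD3, had implied levels of 508 in the control, 1250 with siRNA5 and 661 with siRNA8. TGFBR1 rose 2.46-fold with siRNA5 (log2 1.30, SE 0.086, adjusted p = 1.26e-49), a change larger in size than that of 97.6% of all genes of the authors' deposited table. Its rise with siRNA8 was 1.30-fold (log2 0.38, SE 0.089, adjusted p = 0.000108) according to the authors' deposited table. TGFBR1 was higher with siRNA5 than with siRNA8 by 0.92 (SE 0.12, adjusted p = 3.32e-12).

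TGFBR2, the ligand-binding type II receptor, went from an implied 1188 in the control to 2074 with siRNA5 and 2245 with siRNA8. Both knockdown groups lay above the control and near each other. The authors' deposited tables gave a 1.75-fold rise of TGFBR2 with siRNA5 (log2 0.80, SE 0.060, adjusted p = 6.13e-39) and a 1.89-fold rise with siRNA8 (log2 0.92, SE 0.059, adjusted p = 1.29e-51). No difference between the siRNAs was detected for TGFBR2 (-0.11, SE 0.084, 95% interval -0.28 to 0.05, adjusted p = 0.329).

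The receptor-regulated SMADs carry the signal from TGFBR1. SMAD2, the first of them, had implied levels of 858 in the control, 1225 with siRNA5 and 828 with siRNA8. From the authors' deposited tables, SMAD2 rose 1.43-fold with siRNA5 (log2 0.51, SE 0.072, adjusted p = 1.31e-11) and was not called with siRNA8 (log2 -0.05, SE 0.074, adjusted p = 0.61). The siRNAs differed for SMAD2 by 0.57 (SE 0.10, adjusted p = 5.67e-07). SMAD3, the receptor-regulated SMAD that binds DNA directly, had implied levels of 2584, 2351 and 2496 in the control, siRNA5 and siRNA8 groups, a narrow range. It fell with siRNA5 (log2 -0.14, SE 0.059, adjusted p = 0.0469) and was not called with siRNA8 (log2 -0.05, SE 0.059, adjusted p = 0.524), as the authors' deposited tables list it. The call for siRNA5 is lost at a threshold of 0.01 and under Benjamini-Yekutieli adjustment (adjusted p = 0.466). No difference between the siRNAs was detected for SMAD3 (-0.09, SE 0.084, 95% interval -0.25 to 0.08, adjusted p = 0.479).

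SMAD4, the common partner of the receptor-regulated SMADs, had implied levels of 861 in the control, 1041 with siRNA5 and 874 with siRNA8. It rose with siRNA5 (log2 0.27, SE 0.076, adjusted p = 0.00105) and was not called with siRNA8 (log2 0.02, SE 0.076, adjusted p = 0.844) per the authors' deposited tables. The difference between the siRNAs was not called (0.25, SE 0.11, 95% interval 0.04 to 0.46, adjusted p = 0.058), and it had adjusted p = 0.00252 once the variance of the shared controls was taken out of its standard error. When only genes with a mean of at least 100 were adjusted together, the SMAD4 difference had adjusted p = 0.049.

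Both feedback inhibitors rose with siRNA5. SMAD7, which blocks the type I receptor and recruits ubiquitin ligases to it, had implied levels of 430 in the control, 571 with siRNA5 and 465 with siRNA8. The authors' deposited tables list a 1.33-fold rise of SMAD7 with siRNA5 (log2 0.41, SE 0.10, adjusted p = 0.000237) and no call with siRNA8 (log2 0.11, SE 0.10, adjusted p = 0.398). The difference between the siRNAs was not called for SMAD7 (0.30, SE 0.15, 95% interval 0.01 to 0.58, adjusted p = 0.106), and without the variance of the shared controls it had adjusted p = 0.00842. SKIL, also called SnoN, binds SMADs and represses their target genes. Its implied levels were 545 in the control, 959 with siRNA5 and 737 with siRNA8, so that the control was the lowest group. SKIL rose 1.76-fold with siRNA5 (log2 0.82, SE 0.082, adjusted p = 7.65e-22) and 1.35-fold with siRNA8 (log2 0.44, SE 0.083, adjusted p = 1.25e-06), both from the authors' deposited tables. SKIL was higher with siRNA5 than with siRNA8 by 0.38 (SE 0.12, adjusted p = 0.00529).

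The SKIL promoter is shown because SKIL is the feedback gene that rose with each siRNA. The window runs from 250 bases before to 50 bases after the start of the gene (RefSeq, GRCh38.p14, chr3:170357465-170357764, plus strand). Capitals mark the SMAD motif searched for, GTCTG on either strand (CAGAC on the other). Shorter matches to GTCT or AGAC alone were not marked.
SKIL promoter: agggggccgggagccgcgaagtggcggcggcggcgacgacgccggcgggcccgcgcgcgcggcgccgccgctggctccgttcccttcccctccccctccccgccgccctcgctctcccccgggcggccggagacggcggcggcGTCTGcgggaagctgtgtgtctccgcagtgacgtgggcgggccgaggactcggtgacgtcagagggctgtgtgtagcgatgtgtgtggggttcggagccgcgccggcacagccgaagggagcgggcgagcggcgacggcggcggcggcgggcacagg
This window holds 1 such motif and has a GC content of 79.0%. All 10 genes matched the RefSeq table, with 25 such windows, and 11 of the windows, from 5 genes, hold a GTCTG or CAGAC motif. That is near the 45.3% of all 35116 windows that hold one. The longer palindrome GTCTAGAC was found in 0.202% of all windows and in 0 of the 25.

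TGFBI, a secreted matrix protein named for its induction by TGF-beta, had implied levels of 37354 in the control, 31409 with siRNA5 and 39392 with siRNA8. It fell with siRNA5 (log2 -0.25, SE 0.039, adjusted p = 1.87e-09) and was not called with siRNA8 (log2 0.08, SE 0.039, adjusted p = 0.104) in what the authors' deposited tables list. The siRNAs differed for TGFBI by -0.33 (SE 0.055, adjusted p = 5.46e-08). With siRNA5, TGFBI was thus lower while the feedback targets SKIL and SMAD7 were higher.

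Sequences of the 3' untranslated region (3' UTR), the part of a messenger RNA after the stop codon, were set beside these changes, with 1 GENCODE 29 transcript per gene on GRCh38. Among 9133 genes with a mean of at least 100, 11890 sequences of 7 bases (heptamers) occurred in the 3' UTR of 250 genes or more. ACTAGAA was the heptamer with the lowest median change under siRNA8, -0.11 in the 943 genes that hold it and 0.03 in the rest. The next, CTAGAAA, overlaps it by 6 bases and had a median of -0.10 in 1286 genes, beside 0.03 in the rest. Under siRNA5 the lowest was AACGCTG, with a median of -0.14 in 251 genes and 0.03 in the rest. These heptamers were picked on the changes themselves, so their medians are descriptions. The sequences of the siRNAs are not given in the sources used here, and the part of any heptamer in the changes of the 10 genes was not tested.

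Of the 10 genes, 0 hold AACGCTG in the 3' UTR used, and 5 hold 1 or both of the siRNA8 heptamers, beside 18.5% of the 9133 genes. The 5 have a median 3' UTR length of 4887 nt, against 1058 nt over all genes, and a longer 3' UTR has more places for a site. The sites are printed for the genes called with siRNA8 that hold one, with the heptamer in capitals and 10 bases on each side. They lie at chr1:218444024-218444050 in TGFB2, chr9:99153715-99153741 in TGFBR1 and chr3:30693635-30693661 in TGFBR2, all on the plus strand of GRCh38.
TGFB2: atcatcgagtCTAGAAAacacctgtga
TGFBR1: gtagatggcaACTAGAAcctttgagtt
TGFBR2: atagaggcgcCTAGAAAttccacttgc
Of these 3 genes, TGFB2 fell with siRNA8 while TGFBR1 and TGFBR2 rose. TGFB1, which had the deepest fall of the 10 genes with siRNA8, holds neither heptamer in its 3' UTR of 729 nt. SMAD4 holds 1 ACTAGAA and 3 CTAGAAA and SMAD2 holds 2 CTAGAAA, and neither gene passed the test with siRNA8. Of 129 other pathway genes with a mean of at least 100 and a 3' UTR, 40 hold 1 or both heptamers, of which 11 rose and 10 fell with siRNA8. Among the 89 that hold neither, 44 rose and 12 fell. Over all 9133 genes, 1694 hold 1 or both heptamers, of which 321 rose and 609 fell with siRNA8. Of the 7439 that hold neither, 1927 rose and 1446 fell.

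Base composition of the 3' UTR was set beside the changes too. Over the 9133 genes, which share their libraries and are no replicates of each other, Spearman's rho between 3' UTR GC content and change was -0.27 with siRNA5 and -0.14 with siRNA8. Genes with a 3' UTR of under 30% GC had a median change of 0.13 with siRNA5, and those of 60% GC or more had a median of -0.15. SKIL had a GC content of 27.5%, with 2.69% of genes below it, and rose with each siRNA. TGFB1 had the highest of the 10, 55.8%, and its change had opposite signs with the siRNAs. Of the 3 genes that fell with siRNA5, TGFB2 lay below the median GC content of 41.4% (34.7%), and SMAD3 (46.2%) and TGFBI (44.5%) lay above it. The part of base composition in these changes was not tested.

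**Figure D3:**
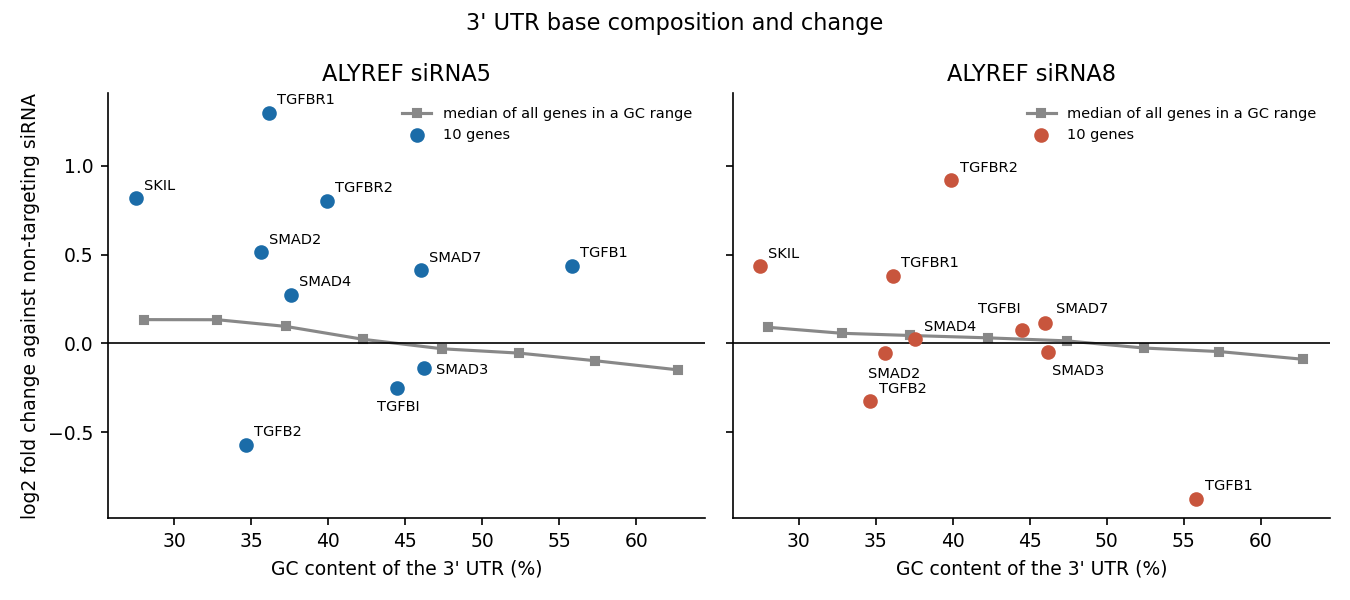
GC content of the 3' UTR (x axis, %) against log2 fold change (y axis) for the 10 genes (coloured points), with the median of all genes in each GC range (grey line), for ALYREF siRNA5 (left) and ALYREF siRNA8 (right). The medians by GC range span 0.13 to -0.15 with siRNA5 and 0.09 to -0.09 with siRNA8, while the 10 genes spread from -0.57 to 1.30 and from -0.87 to 0.92.

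The other genes of the pathway were taken from 10 lists by role, in which 150 of 193 genes were measured. These lists too were chosen with earlier results of these data known. With siRNA5, 58 of the 150 rose and 34 fell, and with siRNA8, 59 rose and 24 fell, which is 61.3% and 55.3% of them, beside the 46.4% and 41.5% of all genes given above. Among the 5621 genes of higher mean described above, the shares called were 59.0% and 53.5%. The means of the 150 run from 15.2 to 53094, and neither they nor the single lists were matched to a background by mean. The median change of the 150 was 0.11 with siRNA5 and 0.07 with siRNA8, beside 0.01 over all genes. Under a further demand of a 1.5-fold change, 21 of the 150 were called with siRNA5, where 14.7% of all genes were, and 29 with siRNA8, where 12.6% of all genes were. For siRNA5 that count is near its background. Calls with an adjusted p of 0.005 or more are printed with it below, and those at 0.01 or more are lost at the stricter threshold of 0.01.

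Of 15 measured genes that store and activate latent TGF-beta, 10 rose and 3 fell with siRNA5 (median 0.26), and 9 rose and 2 fell with siRNA8 (median 0.26). That is 86.7% and 73.3% of them, beside 46.4% and 41.5% of all genes. LTBP2, a relative of the latent TGF-beta binding proteins found in microfibrils, had implied levels of 66.0 in the control, 177 with siRNA5 and 221 with siRNA8. The authors' deposited tables gave LTBP2 a rise of 1.43 (SE 0.19) with siRNA5 and of 1.74 (SE 0.19) with siRNA8. LTBP1, which tethers latent TGF-beta to the matrix, has a mean of 70.2 in the authors' deposited tables and rose by 1.18 (SE 0.27) with siRNA5 and by 1.84 (SE 0.27) with siRNA8. Integrins of ITGAV with a beta chain bind and activate latent TGF-beta. The beta chain ITGB8 rose in the authors' deposited tables by 0.41 (SE 0.070) for siRNA5 and 0.98 (SE 0.068) for siRNA8. The beta chain ITGB6 rose by 1.28 (SE 0.23) for siRNA5 and was not called for siRNA8 (0.07, SE 0.26, adjusted p = 0.85), from the authors' deposited tables. ITGB5, a further partner of ITGAV, rose by 0.27 (SE 0.047) for siRNA5 and 0.76 (SE 0.046) for siRNA8. ITGB1, another partner, rose by 0.10 (SE 0.044, adjusted p = 0.0432) for siRNA5 and 0.26 (SE 0.044) for siRNA8, also from the authors' deposited tables.

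THBS1, thrombospondin 1, which can release TGF-beta from its latent complex, changed in opposite directions, as TGFB1 did. Its implied levels were 12041 in the control, 21395 with siRNA5 and 4171 with siRNA8. THBS1 rose with siRNA5 by 0.83 (SE 0.067) and fell with siRNA8 (log2 -1.53, SE 0.068), read off the authors' deposited tables, a difference of 2.36 (SE 0.095, adjusted p = 1.3e-131). Its 3' UTR holds 3 ACTAGAA and 3 CTAGAAA, and 1 place where both overlap is printed, on a gene picked for its fall with siRNA8 (chr15:39598232-39598258, GRCh38, plus strand), with ACTAGAA in capitals.
THBS1: tctattaaacACTAGAAaggactggct
MMP2, a gelatinase that can process latent TGF-beta, fell with siRNA5 (log2 -1.18, SE 0.10) and with siRNA8 (log2 -0.32, SE 0.091) according to the authors' deposited tables. LTBP3, another latent TGF-beta binding protein, fell with siRNA5 (log2 -0.39, SE 0.13, adjusted p = 0.00947) and rose with siRNA8 by 0.38 (SE 0.12, adjusted p = 0.00762), again from the authors' deposited tables.

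Among 8 other genes listed with the ligands of the family, 1 rose and 1 fell with siRNA5 and 1 rose and 3 fell with siRNA8 (medians 0.21 and -0.28). The shares called were 25.0% and 50.0%, beside 46.4% and 41.5% of all genes. The 8 include BMP1, a protease and not a ligand, which was called with neither siRNA. TGFB3, the remaining TGF-beta isoform, had a mean of only 15.2 in the authors' deposited tables and was called with neither siRNA. INHBB, an activin subunit, rose with siRNA5 by 0.29 (SE 0.072), and its siRNA8 value in the authors' deposited table was 0.00 (SE 0.072, adjusted p = 0.986). INHBA, the activin A subunit, fell with siRNA8 (log2 -0.33, SE 0.10), and its siRNA5 value in the authors' deposited table was -0.19 (SE 0.10, adjusted p = 0.13). GDF15, a divergent family member induced by stress, rose with siRNA8 from an implied 18.3 to 103 in the authors' deposited table, a change of 2.49 (SE 0.40). GDF11, an activin-like ligand, fell there (log2 -1.32, SE 0.22).

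Of 12 other receptors and co-receptors, 3 rose and 2 fell with each siRNA (medians 0.21 and -0.07). This is 41.7% called with each, near the 46.4% and 41.5% of all genes. ACVR1B, the activin type I receptor that also phosphorylates SMAD2 and SMAD3, rose in the authors' deposited tables with siRNA5 by 0.52 (SE 0.12) and with siRNA8 by 0.40 (SE 0.12). ACVR2B, an activin type II receptor, rose with siRNA5 by 1.47 (SE 0.16), and the authors' deposited table for siRNA8 lists -0.36 (SE 0.18, adjusted p = 0.106) without a call. BMPR2, the type II receptor of bone morphogenetic proteins (BMPs), fell with siRNA8 (log2 -0.47, SE 0.083), and the authors' deposited table for siRNA5 lists -0.18 (SE 0.082, adjusted p = 0.0528) without a call. The co-receptors differed among themselves. CD109, which promotes receptor turnover, fell with siRNA5 (log2 -0.58, SE 0.081) and was not called with siRNA8 (0.06, SE 0.078, adjusted p = 0.561) by the authors' deposited tables. NRP1, which binds TGF-beta among other ligands, fell with siRNA5 (log2 -0.20, SE 0.079, adjusted p = 0.0262) and with siRNA8 (log2 -0.90, SE 0.083) on the scale of the authors' deposited tables. Its relative NRP2 rose by 0.40 (SE 0.053) for siRNA5 and 0.78 (SE 0.052) for siRNA8 on that scale of the authors' deposited tables.

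Of 17 genes listed as other SMADs and SMAD partners, 4 rose and 1 fell with siRNA5 and 10 rose and 0 fell with siRNA8 (medians 0.07 and 0.24). Called were thus 29.4% and 58.8% of them, beside 46.4% and 41.5% of all genes. The 17 include TRAP1, the symbol of a mitochondrial chaperone and not of a SMAD partner, which rose with siRNA8 by 0.18 (SE 0.050). SMAD1, SMAD6 and SMAD9, of the BMP branch, were called with neither siRNA, and the authors' deposited tables put their changes between -0.38 and 0.16. SMAD5, of the same branch, has a mean of 1497 and rose with siRNA8 by 0.24 (SE 0.064). Its siRNA5 value in the authors' deposited table was 0.07 (SE 0.065, adjusted p = 0.38). ZFYVE9, the endosomal anchor that presents SMAD2 and SMAD3 to the receptor, rose with siRNA8 by 0.34 (SE 0.10) in the authors' deposited table. FKBP1A, which holds TGFBR1 in its inactive state, rose with siRNA8 by 0.34 (SE 0.049), and the siRNA5 value in the authors' deposited table was -0.01 (SE 0.050, adjusted p = 0.853).

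Of 14 repressors and phosphatases of SMADs, 6 rose and 3 fell with siRNA5 and 4 rose and 2 fell with siRNA8 (medians 0.12 and 0.08). These calls make 64.3% and 42.9% of the list, beside 46.4% and 41.5% of all genes. SKI, the founding relative of SKIL, had implied levels of 592 in the control, 821 with siRNA5 and 805 with siRNA8, both knockdowns being higher. It rose in the authors' deposited tables by 0.47 (SE 0.088) for siRNA5 and 0.44 (SE 0.088) for siRNA8. TGIF1, a homeodomain corepressor of SMAD2, rose with siRNA5 by 0.40 (SE 0.079), and its siRNA8 value in the authors' deposited table was -0.01 (SE 0.081, adjusted p = 0.939). PMEPA1, a TGF-beta-induced inhibitor that binds SMAD2 and SMAD3, fell in the authors' deposited tables with siRNA5 (log2 -0.29, SE 0.050) and with siRNA8 (log2 -0.21, SE 0.050). PPP1R15A, known as GADD34, which brings a phosphatase to the type I receptor, rose by 0.37 (SE 0.090) for siRNA5 and 0.91 (SE 0.087) for siRNA8 according to the authors' deposited tables.

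Among 20 ubiquitin ligases and deubiquitinases of the pathway, 9 rose and 5 fell with siRNA5 and 6 rose and 2 fell with siRNA8 (medians 0.14 and 0.04). The 14 calls among 20 genes with siRNA5 lie above the 46.4% of all genes. The 8 calls with siRNA8 are near the 41.5% of all genes. SMURF2, a ligase that SMAD7 brings to the receptor, rose with siRNA8 by 0.52 (SE 0.077), and its siRNA5 value in the authors' deposited table was 0.04 (SE 0.080, adjusted p = 0.704). NEDD4L, a ligase for activated SMAD2 and SMAD3, rose in the authors' deposited tables by 0.49 (SE 0.073) for siRNA5 and 0.37 (SE 0.073) for siRNA8. USP11, which removes ubiquitin from TGFBR1, rose by 0.51 (SE 0.10) for siRNA5 and 0.34 (SE 0.10) for siRNA8 according to the authors' deposited tables.

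In the TAK1 branch, the SMAD-independent arm through the kinase MAP3K7, 7 of 15 rose and 3 fell with each siRNA (medians 0.28 and 0.09). The share called was 66.7% with each, beside 46.4% and 41.5% of all genes. MAP3K7 itself fell in the authors' deposited tables with siRNA5 (log2 -0.48, SE 0.081) and with siRNA8 (log2 -0.19, SE 0.078, adjusted p = 0.0424). Its activator TAB1 fell with siRNA5 (log2 -0.59, SE 0.11) and with siRNA8 (log2 -0.27, SE 0.11, adjusted p = 0.0323) according to the authors' deposited tables. TAB3, another activator, rose by 0.50 (SE 0.11) for siRNA5 and 0.28 (SE 0.11, adjusted p = 0.0227) for siRNA8, also from the authors' deposited tables.

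Target genes of TGF-beta, other than the 10 genes above, moved in both directions. Of 36 measured, 16 rose and 12 fell with siRNA5 (median 0.13), and 20 rose and 6 fell with siRNA8 (median 0.30). Together 77.8% and 72.2% of them were called, beside 46.4% and 41.5% of all genes. HMGA2, a chromatin protein, rose by 1.41 (SE 0.13) for siRNA5 and 1.39 (SE 0.13) for siRNA8 according to the authors' deposited tables. CTGF, a matrix-associated growth regulator also driven by YAP, rose with siRNA8 by 1.46 (SE 0.11), and its siRNA5 value in the authors' deposited table was 0.26 (SE 0.12, adjusted p = 0.0724). CYR61, a relative of CTGF, fell with siRNA5 (log2 -0.52, SE 0.042) and with siRNA8 (log2 -0.18, SE 0.041) by the authors' deposited tables. TGFB1I1, the focal adhesion protein Hic-5, fell with siRNA5 (log2 -0.53, SE 0.15) and with siRNA8 (log2 -0.66, SE 0.15), also from the authors' deposited tables. Some targets had opposite calls. PDGFB, a growth factor, rose with siRNA5 by 0.95 (SE 0.11) and fell with siRNA8 (log2 -0.53, SE 0.11) in the authors' deposited tables, as TGFB1 and THBS1 did. CDKN1A, the cell cycle inhibitor p21, did the reverse, with a fall (log2 -1.24, SE 0.10) for siRNA5 and a rise of 0.22 (SE 0.087, adjusted p = 0.0307) for siRNA8 listed in the authors' deposited tables. The CDKN1A rise, and with it the opposite call, is lost at a threshold of 0.01 and under Benjamini-Yekutieli adjustment.

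**Figure D4:**
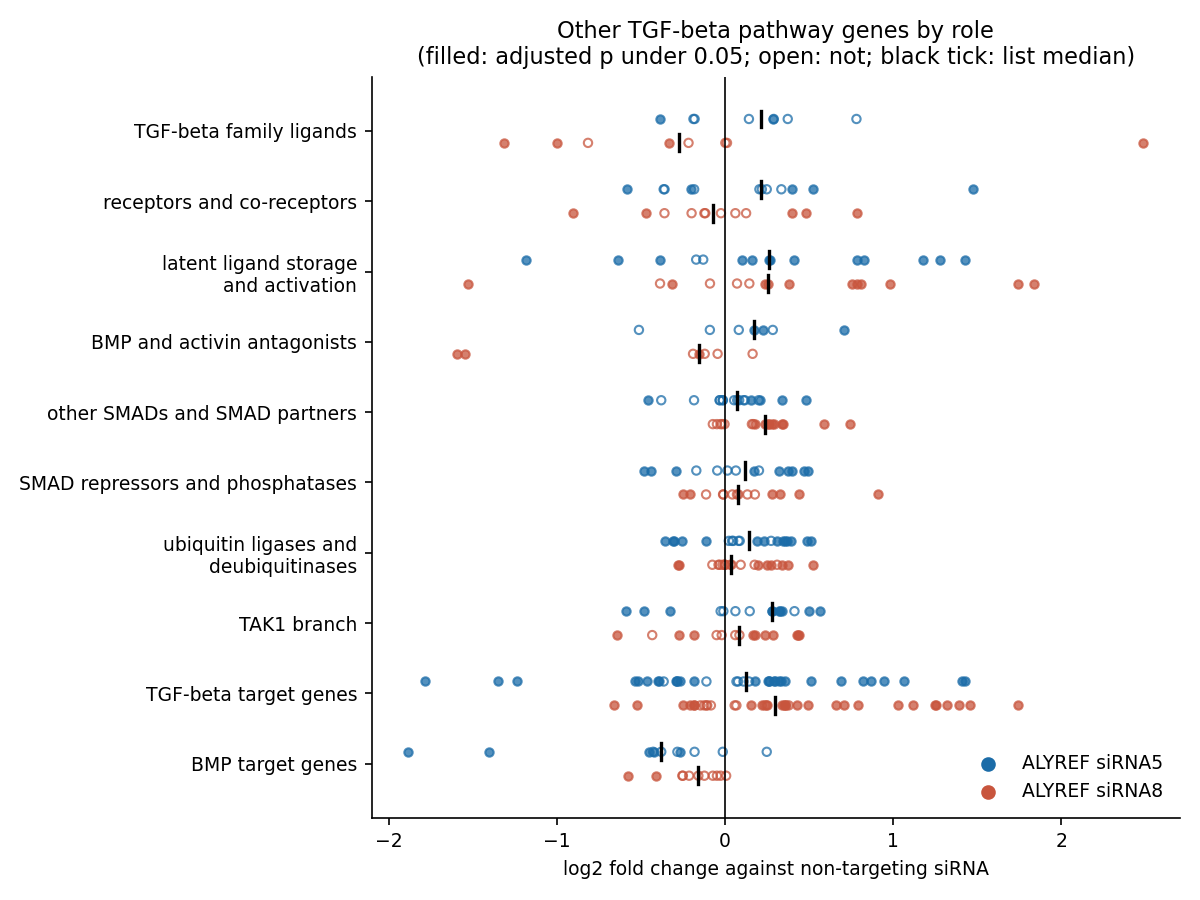
Log2 fold change (x axis) of the 150 other pathway genes in 10 lists by role (y axis), blue for ALYREF siRNA5 and red for ALYREF siRNA8; filled points passed the adjusted p threshold of 0.05 and black ticks are list medians. BMP target genes have no called gene above 0, and the target genes of TGF-beta have called genes on both sides.

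Of 11 measured BMP target genes, 0 rose and 5 fell with siRNA5, and 0 rose and 2 fell with siRNA8 (medians -0.38 and -0.16). Over all genes, 24.4% rose and 22.0% fell with siRNA5, and 21.0% rose and 20.5% fell with siRNA8, so the 2 falls with siRNA8 are near the background. ID3, an inhibitor of helix-loop-helix factors and an immediate BMP target, fell with siRNA5 (log2 -0.42, SE 0.12), and its siRNA8 value in the authors' deposited table was -0.03 (SE 0.12, adjusted p = 0.878). Its relative ID2 fell with siRNA8 (log2 -0.41, SE 0.082), and its siRNA5 value in the authors' deposited table was -0.18 (SE 0.082, adjusted p = 0.0551). The homeobox gene MSX1, whose calls are both lost at a threshold of 0.01, fell with siRNA5 (log2 -0.46, SE 0.20, adjusted p = 0.0483) and with siRNA8 (log2 -0.58, SE 0.20, adjusted p = 0.0115) according to the authors' deposited tables.

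Of 7 BMP and activin antagonists, 3 rose and 0 fell with siRNA5, and 0 rose and 3 fell with siRNA8 (medians 0.17 and -0.15). This is 42.9% called with each, near the 46.4% and 41.5% of all genes. FSTL1, a secreted follistatin-like protein, rose with siRNA5 by 0.23 (SE 0.067) and fell with siRNA8 (log2 -1.59, SE 0.068) in the authors' deposited tables. CRIM1, a membrane protein that binds BMPs, rose with siRNA5 by 0.71 (SE 0.044) and fell with siRNA8 (log2 -0.15, SE 0.045), read off the authors' deposited tables.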

How the data were processed

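Polyadenylated RNA of 6 libraries, 2 per group, was read with paired ends of 42 nt from a strand-keeping kit, per the labels. The submitters' processing notes name STAR, Picard, HTSeq, DESeq2 and hg19, with no versions or settings. The authors deposited 2 result tables, 1 per siRNA, of 11681 rows, of which 2 are counters of unassigned reads (7.85% of the sum of means). Per the file headers, the signal is the mean of counts normalized by size factors, so changes are relative to the other genes. The log2 fold changes and their standard errors are given per the file headers, and the Wald score per the file headers was checked to be their ratio. The deposited p-values were checked to give the adjusted ones by the Benjamini-Hochberg method. ALYREF is lower in both tables, which gives the direction, and the siRNA number in the table's name gives the siRNA. Library depths were not used here; gene means summed to 12632521 normalized counts.

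For the direct comparison, the log2 difference was divided by its standard error (both squared errors added, then the square root), and two-sided normal p-values were adjusted by Benjamini-Hochberg over 11679 genes. This standard error is too large, since the shared controls stay in it, and an alternative rebuilt it without them. The calculation was tested on simulated data. Alternatives were a threshold of 0.01, centring on the median gene, a mean of at least 100, a 1.5-fold minimum and Benjamini-Yekutieli adjustment. Each 3' UTR came from 1 GENCODE 29 transcript (APPRIS rank, support level, coding length), whose end may not be the one these cells use. Python 3.11.15, pandas 2.3.3 and scipy 1.17.1 were used.

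The 10 genes and the lists were chosen with earlier results of these data known. Other genes were named by a rule: from each list, up to 3 of the highest and 3 of the lowest called changes per siRNA with a mean of at least 50, which gave 65 genes, of which a part is described. SMAD1, SMAD5, SMAD6, SMAD9, FKBP1A, TGFB3, ITGB1, ITGB5, ACTA2, SNAI2, TPM1, WWP2 and the overlapping genes fall outside it and were named after their values were seen. The same holds for BMP1 and TRAP1.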

Additional observations from a re-analysis of the deposited data

Results flagged for a closer look

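The effects of the siRNAs differed by the direct test (siRNA5 minus siRNA8, log2, adjusted p under 0.05) for 6 of the 10 genes. The differences were 1.31 for TGFB1, 0.92 for TGFBR1, 0.57 for SMAD2, 0.38 for SKIL, -0.24 for TGFB2 and -0.33 for TGFBI. TGFB1 was the 1 gene of the 10 called with each siRNA in opposite directions.

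Over all 11679 genes, 686 were called in opposite directions with the siRNAs, counted without the further demand that they differ by the direct test. Among the 150 other pathway genes, 13 were called in opposite directions with siRNA5 and siRNA8 and also differed between them. The count is 12 at a threshold of 0.01 (without CDKN1A), 12 among genes with a mean of at least 100 (without ACTA2), 9 under Benjamini-Yekutieli adjustment (without CDKN1A, LTBP3, SNAI2 and WWP2) and 2 with a 1.5-fold minimum in both comparisons (THBS1 and ACTA2). Those higher with siRNA5 were THBS1 (difference 2.36), FSTL1 (1.82), PDGFB (1.47), XIAP (0.97), CRIM1 (0.86) and ADAM12 (0.55). Those lower with siRNA5 were ACTA2 (-3.04, from a mean of 47.1), CDKN1A (-1.46), SNAI2 (-1.19), LTBP3 (-0.76), DAB2 (-0.72), TPM1 (-0.54) and WWP2 (-0.53). ACTA2, smooth muscle actin and a marker of myofibroblasts, fell with siRNA5 (log2 -1.79, SE 0.49) and rose with siRNA8 by 1.25 (SE 0.32), by the authors' deposited tables. SNAI2, a transcription factor of mesenchymal transition, fell with siRNA5 (log2 -0.40, SE 0.14, adjusted p = 0.0096) and rose with siRNA8 by 0.79 (SE 0.12), again from the authors' deposited tables.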

How the results depend on the processing

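Counts of called genes stayed within 1.5 times of the reported ones at the threshold of 0.01, with median centring, with the minimum mean of 100 and, against the control, with Benjamini-Yekutieli adjustment. A standard error without the shared control variance gave 8 of the 10 genes different between the siRNAs in place of 6, and 48.1% of all genes in place of 32.0%. The demand of a 1.5-fold change lowered the counts, since it removes small changes by construction. It left 3 of the 10 genes with siRNA5 (TGFBR1, TGFBR2 and SKIL), 2 with siRNA8 (TGFB1 and TGFBR2) and 2 in the direct comparison (TGFB1 and TGFBR1). For the other pathway genes it left 21 with siRNA5 and 29 with siRNA8, where 14.7% and 12.6% of all genes were called. Of 150 values of the 10 genes under these settings, 130 kept their side of the threshold, 17 lost the call, 3 gained it and 0 called values changed sign. Of 1032 values of the other named genes, 884 kept their side, 132 lost the call, 16 gained it and 0 called values changed sign; BMPR2 with siRNA5 was called with median centring and with the minimum mean of 100. The opposite calls of TGFB1 held under these settings except the 1.5-fold demand. No paired analysis was possible because the tables hold no values per library, and for the same reason leaving out each replicate was not run.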
